A study of Mus musculus with 2 samples.

Results

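The 10 genes of the elastic fibre and of its crosslinking followed here were measured across the cells of the mouse choroid and retinal pigment epithelium (RPE): Eln, Fbn1, Fbln1, Fbln5, Efemp1, Efemp2, Lox, Loxl1, Mfap4 and Mfap5. They were chosen by symbol, and all 10 were found among the 32285 genes of the count matrices. The cells came from wild-type (WT) mice of the outbred ICR strain that were 8 weeks old, with no treatment named in the labels, and the tissue had been digested with collagenase and trypsin. There were 2 libraries of the Chromium 3′ v3.1 chemistry, each a pool of the eyes of 1 male and 1 female, so that differences between animals are averaged within a library. The library was fitted as a block, so p-values measure only how far differences between classes varied between the 2 pools. They do not measure the spread between animals. Barcodes were kept from 1000 unique molecular identifiers (UMIs) and 500 genes upwards if no more than 20% of the UMIs were mitochondrial, 8497 in library 1 and 13401 in library 2. Each was given to 1 of 7 classes by the marker trio with the most UMIs, at least 5 of them, which placed 7874 and 12615 barcodes. Throughout, a pair of values joined by "and" gives library 1 first and library 2 second, and levels (CPM) are the UMIs of a gene for every 1000000 UMIs of the class.

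Elastic fibres are built outside the cell in steps. Fibrillin microfibrils, with microfibril-associated proteins on them, form a scaffold onto which tropoelastin, the soluble product of Eln, is laid down, fibulins bind tropoelastin and guide it to the scaffold, and lysyl oxidases then join lysines of neighbouring chains into insoluble crosslinked elastin. In the eye, Bruch's membrane, the sheet between the RPE and the choroidal capillaries, has an elastic layer, and arteries have elastic laminae between their smooth muscle cells. Protein made early in life can persist for long periods in elastic tissue, and RNA levels in adults say nothing of how much fibre is present.

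The fibroblast class (Dcn, Col1a2, Col3a1) held 3998 and 6232 cells, and the melanocyte class (Dct, Pmel, Mlana) 1407 and 2251. The pericyte class (Rgs5, Kcnj8, Higd1b) had 1038 and 1425 cells, the RPE class (Rpe65, Rgr, Rlbp1) 304 and 903, the endothelial class (Cdh5, Pecam1, Egfl7) 464 and 609, the macrophage class (C1qa, Csf1r, Cd68) 429 and 865 and the smooth muscle class (Myh11, Cnn1, Acta2) 234 and 330. Of 5 further markers per class, all 5 were highest in their own class, except Best1, which had 2 and 10 UMIs in the RPE class and was highest in macrophages, and Cspg4, which was highest in smooth muscle. The median depth was 7842 and 8253 UMIs per barcode, and across classes it ran from 5581.5 UMIs in pericytes to 26253.5 in RPE cells, both in library 1. The libraries shared 31 kept barcode sequences. RNA of fibroblast markers was present in the other classes: Dcn stood at 446 and 665 CPM in pericytes, 355 and 575 in smooth muscle, 336 and 624 in melanocytes, 77.8 and 215 in the RPE class, 79.6 and 121 in macrophages, and 48.5 and 143 in endothelial cells. The fibroblast class also carried chondrocyte markers, summing to 1334 and 1349 CPM over 5 genes, and tendon markers, summing to 968 and 933 CPM over 4 genes, with no gene of either list at 0. The chondrocyte list was uneven. Acan was at most 18.5 CPM in any of the 7 fibroblast subsets described below, and Col2a1 at most 28.5 CPM. Comp, by contrast, reached 1960 CPM in 1 subset, and Chad reached 1440 CPM. What these RNAs contribute to the levels of the 10 genes was not tested beyond the values given beside each result.

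Fibroblasts carried the largest share of the UMIs of each of the 10 genes. The class held 45.6% and 44.8% of all UMIs in the 7 classes, but 93.7% and 92.4% of those of Lox, 94.3% and 93.0% of Mfap5, 94.5% and 91.2% of Fbln1, 96.0% and 89.9% of Mfap4 and 88.9% and 83.6% of Loxl1. The share was 77.5% and 82.8% for Eln, about as much for Efemp1 at 75.7% and 70.4%, Fbln5 at 74.2% and 74.0% and Fbn1 at 72.7% and 70.9%, and lowest for Efemp2 at 63.7% and 61.4%. The level in CPM was not highest in fibroblasts for 3 of them: Eln stood higher in smooth muscle, and Fbn1 and Efemp1 in pericytes, though none of these differences passed the test. In addition, Fbln5 and Efemp2 were measured in melanocytes and the RPE class, and Fbn1 and Loxl1 in the RPE class.

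Each class was then set against the mean of the other 6 with edgeR's quasi-likelihood test on summed counts, with the library as a block and Benjamini-Hochberg adjustment over 15146 genes. A gene was called at an adjusted p under 0.05 and a log2 difference of at least 1 in size. In fibroblasts 10 of the 10 genes were higher and 0 lower, where 17.1% and 6.31% of all genes were called in those directions. The median log2 difference of the 10 was 3.45, against 0.02 over all genes. In smooth muscle 6 were higher (Eln, Fbln1, Lox, Loxl1, Mfap4 and Mfap5) and 0 lower, where 12.4% and 7.29% of all genes were called, and the median was 1.39 against -0.09. In pericytes 4 were higher (Efemp1, Fbn1, Lox and Mfap5) and 1, Fbln5, was lower, where 12.9% and 9.26% of all genes were called, and the median was 0.69 against -0.06. When cells carrying a fibroblast marker UMI were left out of the other classes, Mfap5 was no longer higher in either wall-cell class, and Loxl1 in smooth muscle stood at a log2 difference of 1.41 that no longer passed the test. This filter has a limit that holds wherever it is used below: it also leaves out any wall cell that makes collagen itself. Col3a1 stood at 286 and 501 CPM in pericytes and 136 and 206 in smooth muscle, against 505 and 840 in fibroblasts, so filtered values may understate members that such wall cells express.

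In each of the remaining 4 classes, no more than 4 genes were higher. In the RPE class 4 genes were higher (Fbn1, Fbln5, Efemp2 and Loxl1) and 5 lower (Eln, Fbln1, Lox, Mfap4 and Mfap5), where 26.3% and 23.5% of all genes were called. Scaled to raw UMI totals in place of trimmed-mean factors, only Loxl1 of the 4 kept its call, with Fbn1 at a log2 difference of 0.99, Efemp2 at 0.88 and Fbln5 at 0.87. With free RNA subtracted, 0 of the 5 kept their call as lower in the RPE class, where 2939 of 14984 genes were called lower. Eln was then at -1.75, Lox at -0.51, Mfap4 at -0.50 and Fbln1 at -0.41, and Mfap5 turned to 1.64 (edgeR, adjusted p = 0.0299). In melanocytes 1 gene, Fbln5, was higher and 2, Eln and Fbn1, were lower, where 14.7% and 11.3% of all genes were called. In endothelial cells Eln was higher and 8 genes were lower, where 15.0% and 19.5% of all genes were called, and Fbln5 was the exception at a log2 difference of -0.66. With free RNA subtracted, 2 were called lower in endothelial cells, where 2104 of 14984 genes were called lower. The other calls no longer passed the test, with Fbn1 at -0.78, Fbln1 at -3.43, Lox at -5.34, Loxl1 at -7.26, Mfap4 at -9.58 and Mfap5 at -10.7. All of these but Fbn1 were larger in size than without the subtraction, where they ran from -2.87 to -3.85. In macrophages 0 genes were higher and 10 lower, where 19.8% and 21.1% of all genes were called. The medians of the 10 were -0.87 in the RPE class against -0.05 over all genes, -0.21 in melanocytes against 0.02, -2.79 in endothelial cells against -0.12 and -2.33 in macrophages against -0.14.

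**Figure D1:**
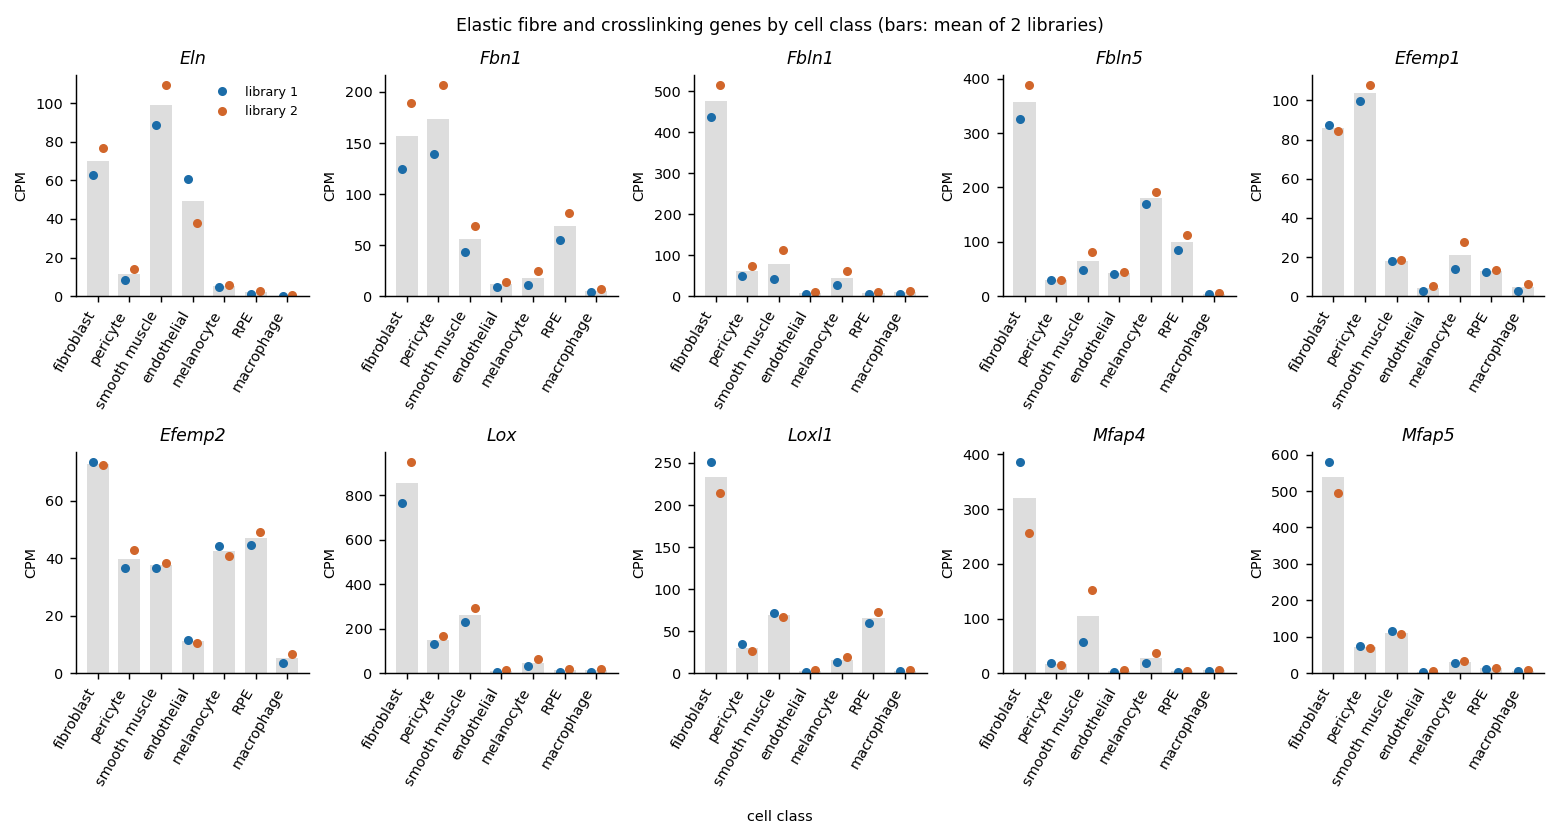
Level of each of the 10 genes (vertical axes, CPM, from 0) in the 7 cell classes (horizontal axes), with 1 point per library and bars at the mean of 2 libraries. Lox, Fbln1, Mfap5 and Loxl1 stand far above the other classes in fibroblasts. Mfap4 does so in library 1 (386 CPM, against 57.9 in smooth muscle), but less in library 2 (256, against 151). Eln is highest in smooth muscle at 88.4 and 109 CPM, and Fbn1 and Efemp1 are about level between fibroblasts and pericytes.

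Elastin RNA (Eln, ENSMUSG00000029675, chromosome 5, 134702593 to 134747323, minus strand, GRCm38) was highest in smooth muscle, fibroblasts and endothelial cells, and was low in pericytes. Its level was 88.4 and 109 CPM in smooth muscle (mean 98.8 ± 15, SD, n = 2), 62.8 and 76.9 in fibroblasts, and 60.6 and 38.0 in endothelial cells. Both smooth muscle values lay above both fibroblast values, while fibroblast and endothelial values nearly met in library 1. The remaining levels were 8.66 and 14.4 in pericytes, 4.83 and 6.07 in melanocytes, 1.33 and 2.84 in the RPE class, and in macrophages 0 and 4 UMIs in all. No macrophage of library 1 had an Eln UMI after thinning, 0 of 401 cells, which allows a share of cells with a UMI of up to 0.748% by a floor of 3 counts and of up to 0.916% by the exact 95% interval. The log2 difference of smooth muscle over fibroblasts was 0.40 ± 0.27 (edgeR, adjusted p = 0.299, 13.5% of genes called in that direction), and that of fibroblasts over endothelial cells was 0.56 ± 0.27 (adjusted p = 0.0917, 31.2% called). Neither step passed the test, and smooth muscle over endothelial cells, which are not neighbours in this order, was not tested. Endothelial cells stood above pericytes by 2.09 ± 0.31 (adjusted p = 0.000156). Against the mean of the other classes, Eln was higher by a log2 difference of 3.57 ± 0.23 in smooth muscle, 3.10 ± 0.20 in fibroblasts and 2.44 ± 0.23 in endothelial cells, the last being 3.17 in library 1 alone and 1.75 in library 2 alone.

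The order at the top for Eln depended on which cells were counted. With classes limited to cells whose own markers were at least 3 times the second class, smooth muscle exceeded fibroblasts by a log2 difference of 0.68 (adjusted p = 0.0192). With only those cells outside the fibroblast class that had no Dcn, Col1a2 or Col3a1 UMI, which left 110 and 94 smooth muscle cells, the difference was -0.56 (adjusted p = 0.186), and Eln stood at 37.9 and 53.3 CPM in them. In endothelial cells without such UMIs it was 34.7 and 37.0 CPM. Adjusted p ranged from 0.0192 to 0.72 over the 11 alternatives that gave one.

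Fibrillin-1 (Fbn1, ENSMUSG00000027204, chromosome 2, 125300594 to 125507993, minus strand), the main structural protein of adult microfibrils, was measured at like levels in fibroblasts and pericytes and also in the RPE class. It stood at 140 and 207 CPM in pericytes (mean 173 ± 47, SD, n = 2), 124 and 189 in fibroblasts, 54.9 and 81.9 in the RPE class and 43.2 and 69.2 in smooth muscle. Library 2 was the higher of the pair in every class, and the pericyte and fibroblast ranges overlapped. Levels were 10.8 and 25.2 in melanocytes, 8.84 and 14.4 in endothelial cells and 4.20 and 6.77 in macrophages. The difference between pericytes and fibroblasts did not pass the test (log2 0.08 ± 0.14, edgeR adjusted p = 0.683, 15.4% of genes called higher in pericytes), whereas fibroblasts exceeded the RPE class by 1.00 ± 0.14 (adjusted p = 1.66e-05, 36.5% called), and the RPE class exceeded smooth muscle by 0.60 ± 0.16 (adjusted p = 0.00408). In cells without fibroblast marker UMIs the RPE class kept 53.0 and 76.2 CPM, and pericytes had 69.7 and 87.1. Those pericytes were 18.9% and 13.2% of the class, and their Fbn1 level may be understated, since the filter takes out any pericyte with collagen RNA of its own. On those cells pericytes were lower than fibroblasts by -1.05 on the log2 scale (adjusted p = 0.0134, with 0.0134 to 0.899 over 11 alternatives). Pericytes whose own markers were at least 3 times those of any other class, by contrast, held 155 and 236 CPM.

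Mfap5 (ENSMUSG00000030116, chromosome 6, 122505845 to 122529290, plus strand), the small glycoprotein MAGP-2 that binds fibrillin, was a fibroblast gene. It stood at 579 and 496 CPM in fibroblasts (mean 537 ± 59, SD, n = 2), 115 and 108 in smooth muscle, 74.9 and 69.7 in pericytes, and 27.5 and 33.2 in melanocytes, and it lay between 2.17 and 15.7 CPM in the RPE class, macrophages and endothelial cells. No other class came near the fibroblast values. Fibroblasts exceeded smooth muscle by a log2 difference of 2.38 ± 0.27 (edgeR, adjusted p = 6.65e-05, 18.4% of genes called), while smooth muscle stood above pericytes in both libraries by a difference that did not pass the test (0.59 ± 0.27, adjusted p = 0.161, 10.7% called). In cells without Dcn, Col1a2 and Col3a1 UMIs, a filter that also takes out any wall cell with collagen RNA of its own, Mfap5 had 1 and 5 UMIs in all pericytes, 1.07 and 5.07 CPM, and stood at 1.35 and 4.21 CPM in smooth muscle. Pericytes whose own markers were at least 3 times those of any other class held 39.0 and 34.3 CPM. With cells carrying Dcn, Col1a2 or Col3a1 UMIs left out, the difference of Mfap5 from the mean of the other classes was -1.27 in pericytes and -1.35 in smooth muscle. The calls there as higher were thus lost and their direction turned. With classes limited to 3-fold class UMIs, the difference in pericytes was 0.65, so the call was lost but the direction kept.

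Mfap4 (ENSMUSG00000042436, chromosome 11, 61485431 to 61488900, plus strand), a secreted fibrinogen-domain protein that binds microfibrils and tropoelastin, differed between the libraries. It stood at 386 and 256 CPM in fibroblasts (mean 321 ± 92, SD, n = 2) and at 57.9 and 151 CPM in smooth muscle, moving in opposite directions between the pools. The next levels were 18.5 and 37.8 in melanocytes and 18.3 and 15.2 in pericytes, and the other 3 classes lay between 2.17 and 5.47 CPM. Fibroblasts exceeded smooth muscle by a log2 difference of 1.83 ± 0.48 (edgeR, adjusted p = 0.0242), which was 2.87 in library 1 alone and 0.87 in library 2 alone, and smooth muscle exceeded melanocytes by 1.91 ± 0.49 (adjusted p = 0.0150, 21.1% of genes called). The first of these calls was lost without doublets called by Scrublet (1.90, adjusted p = 0.0693) and in 3 other settings, with adjusted p from 0.000453 to 0.374 over 11 alternatives. The smooth muscle value rested on few cells: a UMI was found in 11.1% and 15.5% of them.

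Of the members, 4 are fibulins, secreted proteins of repeated EGF-like modules: fibulin-1 (Fbln1), fibulin-5 (Fbln5), fibulin-3 (Efemp1) and fibulin-4 (Efemp2). They had 4 different patterns over the classes. RefSeq promoter entries on GRCm38.p6 were matched by symbol for 5 of the 10 members, with 9 windows of 250 bases before a start. Those of 3 fibulin genes are printed because the genes, although of 1 family, differed in where they were measured: Fbln1 in fibroblasts, Fbln5 in fibroblasts, melanocytes and the RPE class, and Efemp1 in fibroblasts and pericytes. Capitals mark a CACGTG hexamer, and each window is written 5′ to 3′ on the gene's strand.
Fbln1, chr15:85205699-85205948, plus strand: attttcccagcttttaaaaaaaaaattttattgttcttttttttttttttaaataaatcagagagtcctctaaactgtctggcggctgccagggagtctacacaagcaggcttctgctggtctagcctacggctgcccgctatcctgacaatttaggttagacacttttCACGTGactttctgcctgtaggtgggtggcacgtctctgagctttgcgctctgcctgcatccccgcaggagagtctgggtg
Fbln5, chr12:101819120-101819369, minus strand: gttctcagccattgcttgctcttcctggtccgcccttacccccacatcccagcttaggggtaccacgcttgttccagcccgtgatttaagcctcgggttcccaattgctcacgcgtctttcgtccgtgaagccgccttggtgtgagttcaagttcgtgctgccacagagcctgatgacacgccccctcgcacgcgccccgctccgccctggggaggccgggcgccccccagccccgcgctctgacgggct
Efemp1, chr11:28852955-28853204, plus strand: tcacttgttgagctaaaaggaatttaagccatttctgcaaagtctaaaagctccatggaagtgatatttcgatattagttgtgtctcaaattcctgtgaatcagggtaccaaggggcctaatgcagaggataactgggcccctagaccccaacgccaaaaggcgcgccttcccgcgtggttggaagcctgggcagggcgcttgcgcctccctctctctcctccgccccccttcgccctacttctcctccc
The share of G and C was 46.4% in the Fbln1 window, 65.2% in that of Fbln5 and 53.6% in that of Efemp1. The letters TATAAA of a TATA box, CACGTG and also CATGTG of E-boxes, TGACTCA of AP-1 sites and CATTCC of TEAD sites were searched on both strands. Only CACGTG was found in the windows of the members, as 1 hexamer that lies in both Fbln1 windows because they overlap. It stands 81 bases before the start in the window printed. Over all 32851 RefSeq windows of that length, 6.02% held CACGTG, 12.4% TATAAA, 12.3% CATGTG, 4.46% TGACTCA and 12.6% CATTCC. The matches describe letters in these windows and say nothing of binding.

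Fibulin-1 (Fbln1, ENSMUSG00000006369, chromosome 15, 85205949 to 85286535, plus strand), which sits in basement membranes and elastic fibres, was a fibroblast gene. Its level was 438 and 515 CPM in fibroblasts (mean 476 ± 55, SD, n = 2), 43.2 and 112 in smooth muscle, 49.3 and 72.9 in pericytes and 27.2 and 62.1 in melanocytes. The other 3 classes lay between 4.34 and 12.4 CPM. Fibroblasts exceeded smooth muscle by a log2 difference of 2.85 ± 0.25 (edgeR, adjusted p = 3.11e-06), which was 3.47 in library 1 alone and 2.31 in library 2 alone, and smooth muscle and pericytes did not differ beyond their spread (0.24 ± 0.24, adjusted p = 0.561). In cells without fibroblast marker UMIs, Fbln1 stood at 27.1 and 118 CPM in smooth muscle, from 20 and 84 UMIs. In such pericytes it stood at 12.9 and 6.08 CPM, from 12 and 6 UMIs. The filter also takes out any wall cell with collagen RNA of its own.

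Fibulin-5 (Fbln5, ENSMUSG00000021186, chromosome 12, 101746565 to 101819055, minus strand), which binds tropoelastin and the lysyl oxidase family and is needed for normal elastic fibre assembly, was also measured in melanocytes and the RPE class. It stood at 325 and 388 CPM in fibroblasts (mean 357 ± 44, SD, n = 2), 169 and 192 in melanocytes and 85.4 and 113 in the RPE class. These 3 ranges did not overlap. Levels were 48.3 and 80.8 in smooth muscle, 41.5 and 44.5 in endothelial cells, 29.6 and 30.0 in pericytes and 3.68 and 5.47 in macrophages. Fibroblasts exceeded melanocytes by a log2 difference of 1.09 ± 0.15 (edgeR, adjusted p = 2.20e-05, 29.6% of genes called), and melanocytes exceeded the RPE class by 0.56 ± 0.15 (adjusted p = 0.00489, 30.5% called). In melanocytes and RPE cells without fibroblast marker UMIs the level was 172 and 197, and 76.6 and 102 CPM. With free RNA subtracted the first difference was 1.13 (adjusted p = 0.44, with 3.26e-10 to 0.44 over 11 alternatives). Pericytes were below the mean of the other classes by -1.26 ± 0.14 (adjusted p = 3.21e-06).

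Fibulin-3 (Efemp1, ENSMUSG00000020467, chromosome 11, 28853204 to 28926743, plus strand), whose human counterpart is mutated in an inherited macular dystrophy with deposits under the RPE, had its highest levels in pericytes and fibroblasts. It stood at 99.5 and 108 CPM in pericytes (mean 104 ± 5.9, SD, n = 2) and 87.5 and 84.4 in fibroblasts. The RPE class had 12.6 and 13.7 CPM, melanocytes 13.9 and 27.8, smooth muscle 17.8 and 18.3, endothelial cells 2.84 and 5.21 and macrophages 2.89 and 6.38. Both pericyte values lay above both fibroblast values, but by less than the error of the fit (log2 difference 0.19 ± 0.22, edgeR adjusted p = 0.524). Fibroblasts exceeded melanocytes by 2.21 ± 0.23 (adjusted p = 2.55e-06), and the RPE class was not called in either direction (-0.43 ± 0.20, adjusted p = 0.0678). In pericytes without fibroblast marker UMIs, Efemp1 stood at 32.2 and 26.3 CPM, below fibroblasts by -1.64 on the log2 scale (adjusted p = 0.0375, with 0.0375 to 0.694 over 11 alternatives). These are the same 18.9% and 13.2% of pericytes, so Efemp1 too may be understated there. In pericytes whose own markers were at least 3 times those of any other class it stood at 101 and 114 CPM.

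Fibulin-4 (Efemp2, ENSMUSG00000024909, chromosome 19, 5473954 to 5482517, plus strand), which brings lysyl oxidase to tropoelastin, was the member with the smallest fibroblast share. It stood at 73.4 and 72.3 CPM in fibroblasts (mean 72.8 ± 0.75, SD, n = 2), 44.7 and 49.1 in the RPE class, 44.2 and 40.9 in melanocytes, 36.7 and 43.0 in pericytes and 36.6 and 38.4 in smooth muscle. Endothelial cells, at 11.5 and 10.7 CPM, and macrophages, at 3.68 and 6.64, were well below. Fibroblasts exceeded the RPE class by a log2 difference of 0.43 ± 0.15 (edgeR, adjusted p = 0.0202), and the RPE class exceeded melanocytes by 0.45 ± 0.16 (adjusted p = 0.0202, 31.6% of genes called), while melanocytes over pericytes and pericytes over smooth muscle differed by less than the error (0.05 ± 0.16 and 0.12 ± 0.18, adjusted p = 0.875 and 0.695). The first difference was 0.59 in library 1 alone and 0.25 in library 2 alone, and with no replicate block it was 0.44 (adjusted p = 0.0952, with 0.00176 to 0.206 over 11 alternatives). In RPE cells without fibroblast marker UMIs Efemp2 stood at 46.4 and 48.3 CPM, and in such melanocytes at 39.6 and 35.4.

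Lysyl oxidase (Lox, ENSMUSG00000024529), the copper enzyme that starts crosslinking of both elastin and collagen, was highest in fibroblasts, followed by the wall cells of vessels. It stood at 764 and 948 CPM in fibroblasts (mean 856 ± 131, SD, n = 2), 231 and 294 in smooth muscle, 130 and 166 in pericytes and 30.5 and 65.7 in melanocytes. The ranges of these 4 classes did not overlap, and the RPE class, endothelial cells and macrophages lay between 5.64 and 19.3 CPM. Fibroblasts exceeded smooth muscle by a log2 difference of 1.82 ± 0.34 (edgeR, adjusted p = 0.00329), and the difference of smooth muscle over pericytes was 0.78 ± 0.33 (adjusted p = 0.148), which did not pass the test. In wall cells without fibroblast marker UMIs, where Mfap5 was near 0, Lox stood at 120 and 193 CPM in pericytes and 150 and 173 in smooth muscle.

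Lysyl oxidase-like 1 (Loxl1, ENSMUSG00000032334, chromosome 9, 58287738 to 58313186, minus strand), the family member tied to elastin renewal and, in people, to exfoliation glaucoma, was measured in the RPE class, where Lox was low. Loxl1 stood at 251 and 215 CPM in fibroblasts (mean 233 ± 26, SD, n = 2), 59.2 and 72.3 in the RPE class and 71.6 and 66.9 in smooth muscle. Pericytes had 34.6 and 26.2 CPM, melanocytes 13.1 and 19.1, macrophages 2.10 and 4.04, and endothelial cells 1.67 and 3.43. Fibroblasts exceeded the RPE class by a log2 difference of 1.63 ± 0.23 (edgeR, adjusted p = 3.89e-05), and the RPE class and smooth muscle, whose ranges overlapped, differed by less than the error (0.23 ± 0.24, adjusted p = 0.428, 32.9% of genes called). Against the mean of the other classes the RPE class was higher by 1.89 ± 0.17 (adjusted p = 5.48e-07), where Lox was lower by -2.49 ± 0.32 (adjusted p = 9.67e-05). With free RNA subtracted the Lox difference was -0.51 and no longer passed the test, and in library 1 alone it was -3.20. In RPE cells without fibroblast marker UMIs Loxl1 stood at 57.9 and 69.7 CPM and Lox at 1.02 and 5.19.

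The share of cells with at least 1 UMI was read after thinning each cell to 2000 UMIs, with unthinned shares beside it and macrophages as a class that should lack these RNAs. In thinned macrophages no member passed 2.05% of cells. Among fibroblasts, Lox was found in 49.9% and 55.1% of thinned cells (73.9% and 77.6% unthinned), Fbln1 in 46.1% and 54.1% (78.7% and 85.1%) and Mfap5 in 46.5% and 44.5% (71.0% and 70.0%). Eln, by contrast, was found in only 6.87% and 8.35% of thinned fibroblasts (18.9% and 24.8%), against 8.73% and 14.6% of smooth muscle cells (24.8% and 38.2%) and 5.08% and 6.51% of endothelial cells (17.2% and 20.9%). Fbln5 was found in 26.3% and 30.1% of thinned melanocytes, against 31.5% and 37.0% of fibroblasts. The exact 95% intervals of the classes did not overlap in either library, but they cover counting error only. Cells are not replicates, and the difference in shares was not tested. Fbn1 was found in 21.1% and 29.9% of thinned pericytes, 16.5% and 25.1% of fibroblasts and 12.9% and 14.3% of RPE cells. Loxl1 was found in 11.9% and 13.0% of thinned RPE cells (68.1% and 63.9% unthinned), and Lox in 0.678% and 2.09%, which was at the macrophage level of 1.25% and 2.05%. Thinning left out barcodes under 2000 UMIs, for example 9 and 43 of the RPE class and 28 and 35 of the macrophages.

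**Figure D2:**
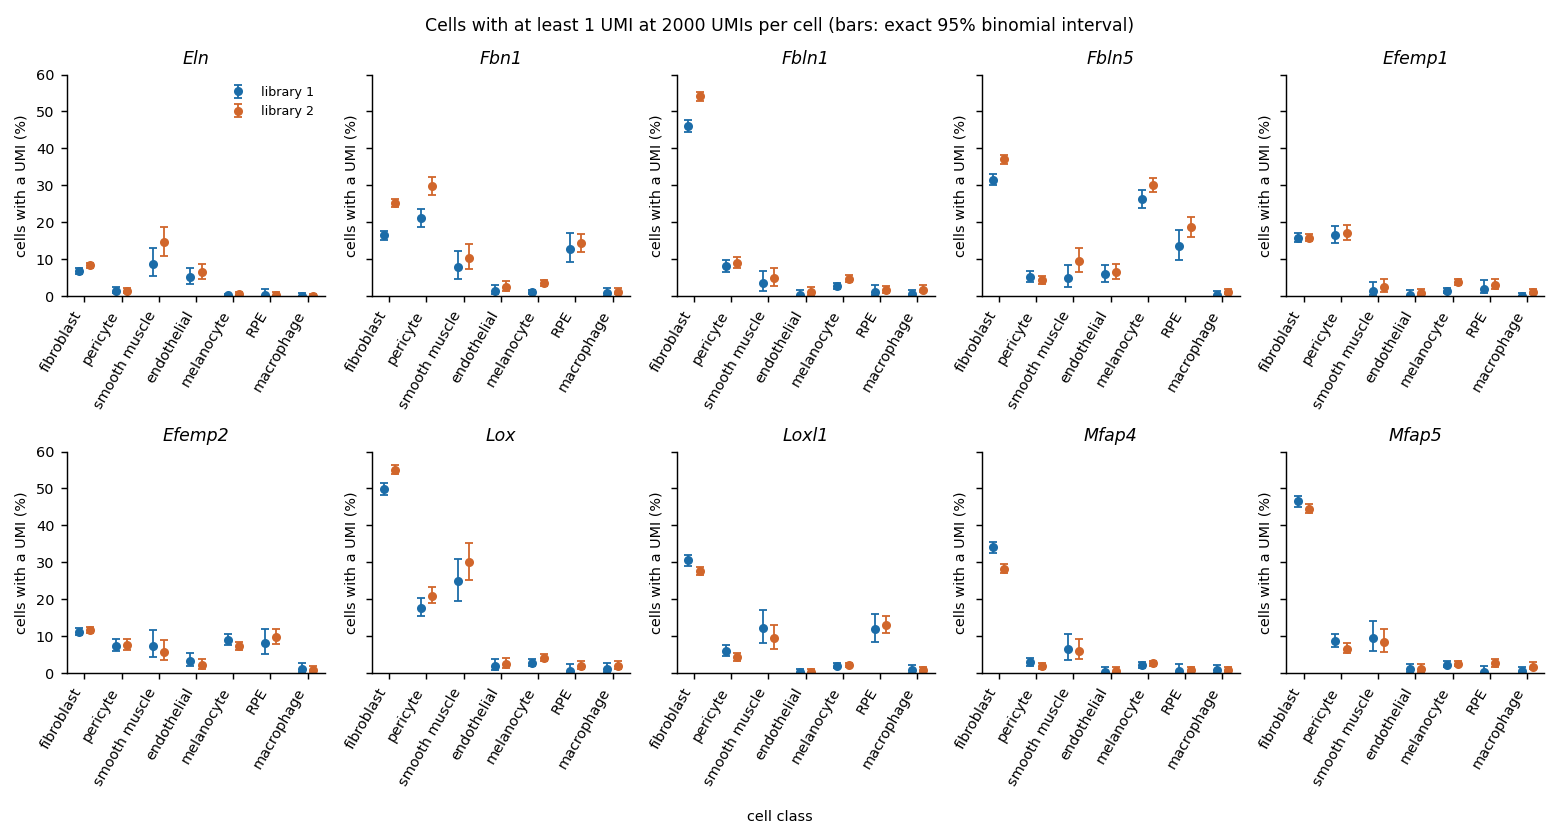
Share of cells with at least 1 UMI of each gene (vertical axes, percent) in the 7 classes after thinning each cell to 2000 UMIs, with 1 point per library and exact 95% binomial intervals that cover counting error only. Lox, Fbln1 and Mfap5 reach 44.5% to 55.1% of fibroblasts, Fbln5 reaches 26.3% and 30.1% of melanocytes, and macrophages stay at or under 2.05% for every gene.

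Most thinned fibroblasts held RNA of several members at once. The mean number of the 10 genes detected was 2.89 and 3.08 per fibroblast, with 3 or more in 56.5% and 61.8% of cells and none in 5.86% and 4.38%. Pericytes averaged 0.953 and 1.03 genes, smooth muscle 0.869 and 1.02, the RPE class 0.515 and 0.669, melanocytes 0.500 and 0.616, endothelial cells 0.205 and 0.245 and macrophages 0.0599 and 0.118. Across single fibroblasts, however, the members correlated only weakly. Over 45 pairs the median Pearson r was 0.054 and 0.056, the highest was 0.247 and 0.252 for Fbln5 with Lox, and the lowest was -0.100 and -0.122 for Efemp1 with Lox. The points are cells that share a library and a depth, and correlations this weak in sparse counts are given only as a description.

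Fibroblasts were divided further by 7 pairs or trios of genes that mark clusters of these same cells, so the levels below are a description with no test. Cells marked by Pi16, Dpt and Clec3b, genes of adventitial fibroblasts in many organs, numbered 290 and 409 and had the highest mean of 5 members. Fbn1 stood at 478 and 735 CPM there, against 80.6 to 194 CPM in the 6 other subsets, with no overlap in either library. Mfap5 stood at 1883 and 1534 CPM, where no other subset passed 641. Efemp1 was at 230 and 206 CPM, Eln at 116 and 175 and Fbln1 at 690 and 662. Lox, at 570 and 535 CPM, was in the lower part of the range in these cells.

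A different set of members was high in the 458 and 1251 cells marked by Ltbp2, a latent TGF-beta binding protein that also binds fibulin-5, and Comp, a cartilage and tendon matrix protein. Lox was highest there at 1385 and 1589 CPM, as was Fbln5 at 598 and 655. Eln stood at 117 and 106 CPM, level with the Pi16-Dpt-Clec3b cells in library 1 and below them in library 2, while Efemp1 was only 29.7 and 28.8 CPM. Loxl1 was about equal in these cells, at 355 and 294 CPM, and in the 212 and 196 cells marked by Angptl7 and Cilp2, at 349 and 302. The latter also had the highest Mfap4, at 765 and 486 CPM. Efemp2 was 108 and 83.8 CPM in Angptl7-Cilp2 cells and 102 and 93.0 in Ltbp2-Comp cells, and the order of that pair changed between libraries.

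Cells marked by Tfpi2 and Tcf21, 509 and 654 in number, had the lowest mean of 8 members, all but Fbn1 and Efemp1. In library 2, however, Fbln1 was lower in Crabp2-Ephb1 cells (435 CPM, against 462), and Mfap5 in Angptl7-Cilp2 cells (256, against 260). Lowest in both libraries were Eln at 23.5 and 28.7 CPM, Fbln5 at 131 and 127, Efemp2 at 43.9 and 44.2, Lox at 344 and 408, Loxl1 at 122 and 104 and Mfap4 at 161 and 128. Efemp1 went the other way, at 109 and 126 CPM, and was low in the cells marked by Kera and Thbs4, at 19.7 and 29.9, and by Angptl7 and Cilp2, at 26.7 and 30.8. The Kera-Thbs4 cells had Lox at 1014 and 1182 CPM and Fbln1 at 554 and 654. Mean levels of the members in the cells marked by Cxcl5, Csf3 and Il11, secreted factors of activated fibroblasts, and by Crabp2 and Ephb1 lay between the extremes for every gene except Fbn1, whose lowest mean of 103 CPM was in the latter. Median depth differed between subsets, from 5359 UMIs in Tfpi2-Tcf21 cells to 14755 in Ltbp2-Comp cells in library 1, and its part in these levels was not tested.

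**Figure D3:**
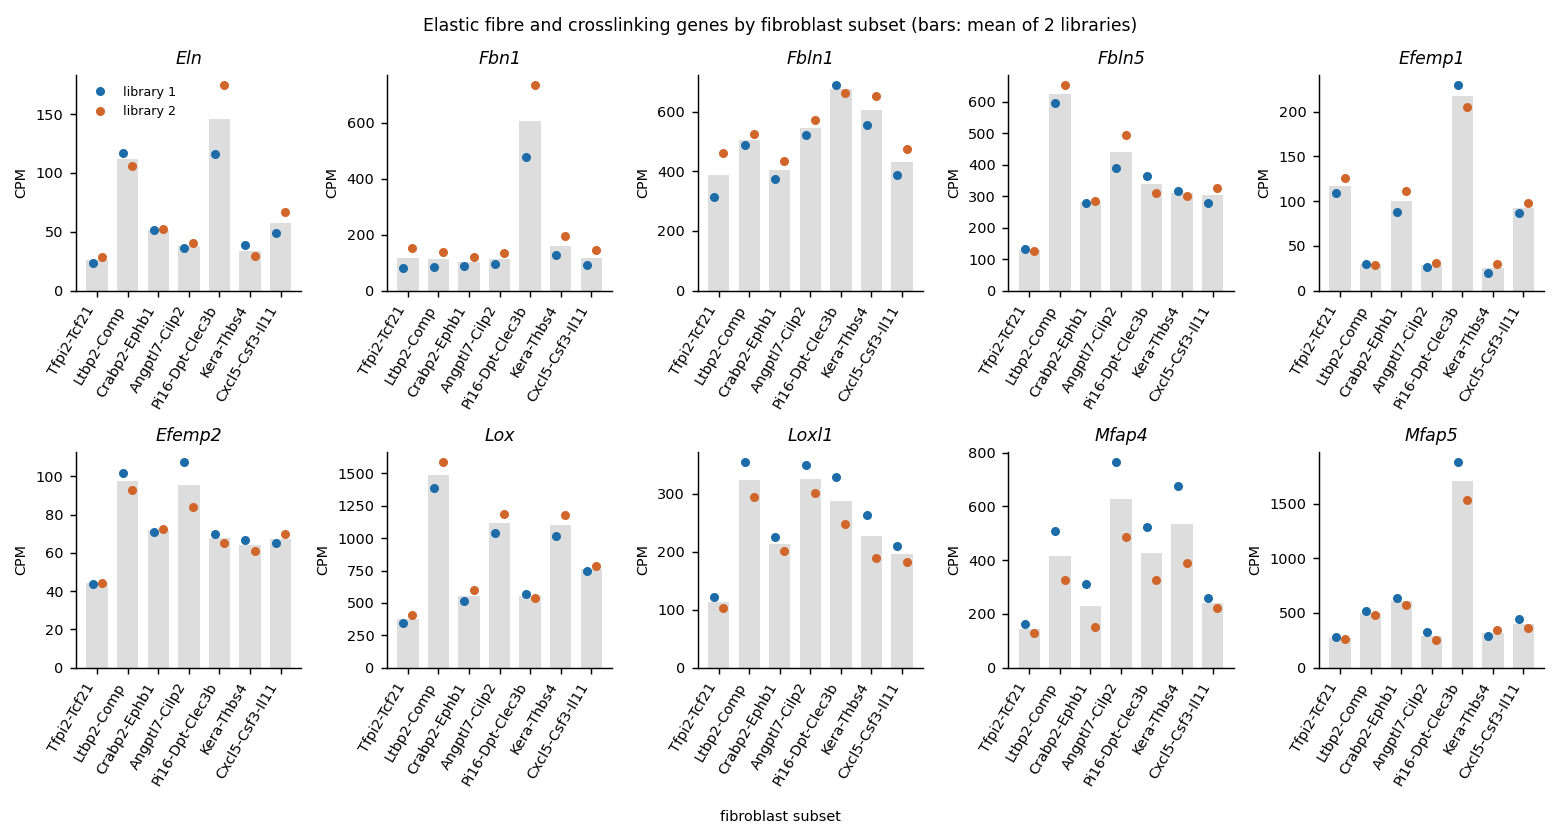
Level of each of the 10 genes (vertical axes, CPM, from 0) in 7 fibroblast subsets named by their marker genes, with 1 point per library and bars at the mean of 2 libraries. Fbn1, Mfap5 and Efemp1 peak in Pi16-Dpt-Clec3b cells, and Lox and Fbln5 peak in Ltbp2-Comp cells, where Efemp1 is near its lowest.

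Within endothelial cells, Eln was highest in arterial cells. The class was divided by the arterial genes Sema3g, Bmx, Gja5, Gja4, Hey1 and Efnb2, the capillary genes Kdr, Plvap, Esm1, Rgcc, Car4 and Emcn and the venous genes Nr2f2, Ackr1, Selp, Vwf and Vcam1, lists taken up after the class levels were seen. Eln stood at 856 and 328 CPM in the 15 and 30 arterial cells, 151 and 83.8 in the 78 and 88 venous cells and 16.3 and 22.7 in the 365 and 480 capillary cells. These ranges did not overlap, but the arterial value rests on 170 and 79 UMIs from few cells. Fbln5 followed the same order at 342 and 315, 61.8 and 72.3, and 27.0 and 31.9 CPM. Fbn1 was 95.7 and 91.2 CPM in arterial cells and at most 15.1 in the other beds. Dcn was low in the arterial cells, at 15.1 and 8.29 CPM, against 51.0 and 156 in capillary cells.

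Wall cells were divided by whether their own markers were at least 3 times the next class. In the pericytes where they were, 718 and 999 cells, Fbn1 stood at 155 and 236 CPM, Efemp1 at 101 and 114, Lox at 96.4 and 129 and Mfap5 at 39.0 and 34.3. In the 175 and 213 pericytes with fibroblast markers second, Dcn was at 1476 and 2223 CPM, Mfap5 at 257 and 231 and Lox at 283 and 313, and Fbn1 at 143 and 213. Smooth muscle cells with their own markers at least 3-fold ahead, 122 and 172 cells, had Eln at 108 and 127 CPM, Lox at 163 and 228 and Mfap5 at 57.4 and 81.3. The 14 and 35 smooth muscle cells with fibroblast markers second had more of all 3, with Eln at 360 and 196 CPM, Lox at 994 and 800 and Mfap5 at 843 and 382, and a Dcn level of 2046 and 3024. The 98 and 123 smooth muscle cells with another class second had Eln at 3.81 and 39.3 CPM. They held the pericyte marker Rgs5 at 5785 and 6683 CPM, against 910 and 930 where smooth muscle markers were at least 3-fold ahead. The Eln level of the smooth muscle class is thus an average over unlike groups of cells. Doublets, free RNA and cells of mixed identity cannot be told apart by these marker counts.

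**Figure D4:**
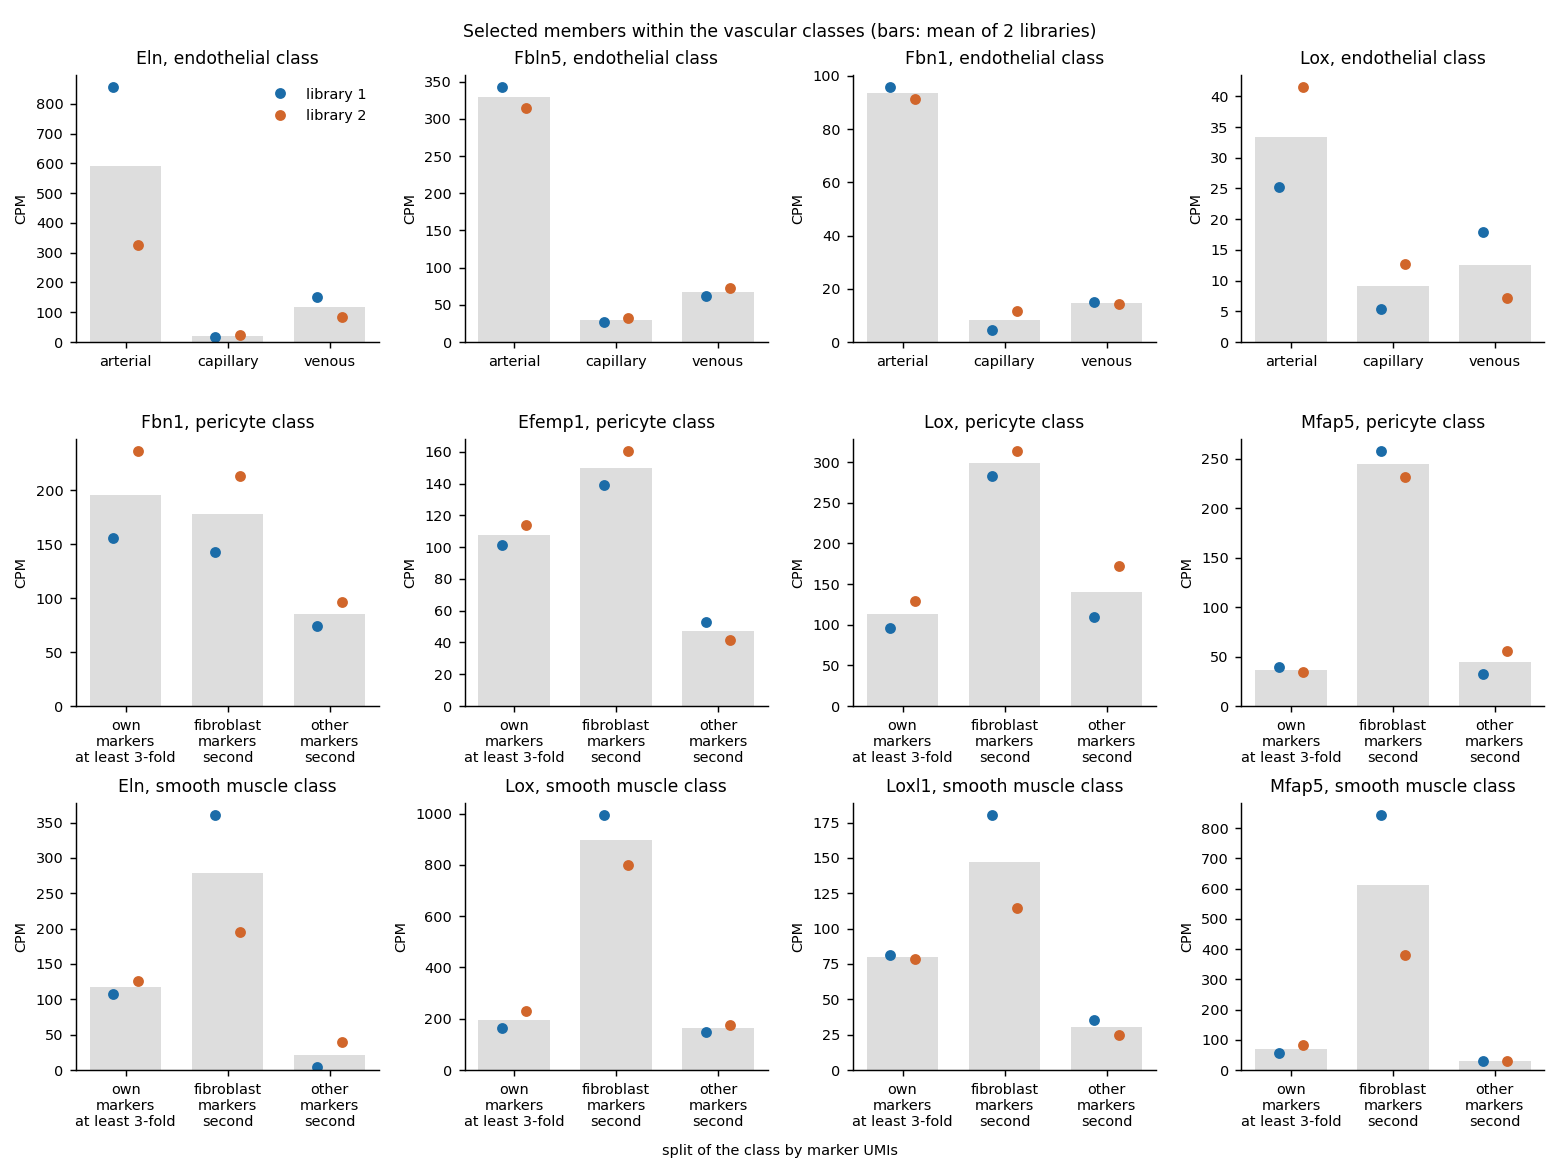
Levels (vertical axes, CPM, from 0) of selected members within the endothelial class by bed and within the pericyte and smooth muscle classes by marker UMIs, with 1 point per library and bars at the mean of 2 libraries. Eln and Fbln5 are highest in arterial cells, and Mfap5 in pericytes is highest where fibroblast markers come second, while Fbn1 there is about as high without them.

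For each member the 3 genes with the most similar profile were found among 14747 genes, as the Pearson r of log2(CPM + 1) over 26 points, the 6 classes other than fibroblasts and the 7 fibroblast subsets in both libraries. The points share libraries and, in part, fibroblast identity, so high values are common and serve only to rank. Eln was nearest to Cavin3 (0.92), Hspb8 and Schip1, and Fbn1 to Fstl1 (0.91), Pcdh18 and Insyn1. Fbln1 was nearest to Mrc2 (0.99), Fgf2 and Egfr, Fbln5 to Ltbp3 (0.95), Npr2 and Tspan6, Efemp1 to Has1 (0.92), Cygb and Shc2, and Efemp2 to Gpx8 (0.98), Ltbp3 and Tspan6. Lox was nearest to Fgf2 (0.98), Twist1 and Ncs1, Loxl1 to Islr (0.98), Pcolce and Peg3, Mfap4 to Serpinf1 (0.98), Cacna1g and Fgf18, and Mfap5 to Entpd2 (0.96), Serping1 and Gsn. No member had another member among its nearest 3.

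Other genes of the same pathway were counted in 3 lists under the same edgeR test and call rule. Of 16 further microfibril and elastic fibre genes, 15 were tested, and 14 were higher in fibroblasts and 0 lower, 6 and 0 in pericytes, 6 and 0 in smooth muscle, 5 and 7 in endothelial cells, 1 and 4 in melanocytes, 2 and 13 in the RPE class and 2 and 10 in macrophages. Over all genes the shares called higher and lower were 17.1% and 6.31% in fibroblasts, 12.9% and 9.26% in pericytes, 12.4% and 7.29% in smooth muscle, 15.0% and 19.5% in endothelial cells, 14.7% and 11.3% in melanocytes, 26.3% and 23.5% in the RPE class and 19.8% and 21.1% in macrophages. The median log2 difference of this list was 2.40 in fibroblasts and -2.02 in the RPE class, against 0.02 and -0.05 over all genes. Ltbp4, a latent TGF-beta binding protein required for elastic fibre assembly, stood at 387 and 343 CPM in fibroblasts, 134 and 124 in pericytes and 112 and 102 in endothelial cells. Besides fibroblasts, Ltbp4 was called higher in pericytes (1.36 ± 0.14, adjusted p = 5.59e-06) and in endothelial cells (1.03 ± 0.15, adjusted p = 5.64e-05). Its relative Ltbp1 was highest in smooth muscle at 161 and 339 CPM (4.02 ± 0.23, adjusted p = 7.16e-07), and Ltbp2 was highest in fibroblasts at 81.2 and 162. Fbn2, the fibrillin prominent in development, stood at 55.7 and 98.9 CPM in fibroblasts, and Mfap2, the relative of Mfap5, at 101 and 87.2.

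Of 10 further crosslinking genes, all tested, 9 were higher in fibroblasts and 0 lower, 5 and 1 in smooth muscle, 3 and 0 in pericytes, 2 and 4 in endothelial cells, 1 and 1 in melanocytes, 2 and 6 in the RPE class and 0 and 7 in macrophages. The counts higher in endothelial cells, melanocytes and the RPE class were near or below the shares of all genes called there (15.0%, 14.7% and 26.3%). Fmod, a collagen-binding proteoglycan that guides lysyl oxidase, stood at 1287 and 1406 CPM in fibroblasts, and Pcolce, an enhancer of procollagen processing, at 1014 and 685 there and at 315 and 220 in the RPE class (2.13 ± 0.24, adjusted p = 5.23e-05). The 3 other lysyl oxidase-like enzymes had patterns of their own. Loxl2 was highest in fibroblasts at 92.9 and 148 CPM and was called higher in melanocytes at 65.7 and 67.9 (1.38 ± 0.16, adjusted p = 1.26e-05), Loxl3 was highest in fibroblasts at 9.44 and 11.1 CPM, and Loxl4 was highest in the RPE class at 6.26 and 8.62 CPM (5.27 ± 0.43, adjusted p = 7.00e-08). In the RPE class, where 26.3% of all genes were called higher and 23.5% lower, Loxl1 and Loxl4 were called higher, and Lox and Loxl2 lower, the Lox call being lost with free RNA subtracted.

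Of 14 genes of elastin breakdown and binding, all tested, 10 were higher in fibroblasts and 1 lower, 4 and 1 in pericytes, 1 and 2 in smooth muscle, 2 and 4 in endothelial cells, 0 and 5 in melanocytes, 3 and 6 in the RPE class and 4 and 6 in macrophages. The counts higher in endothelial cells, smooth muscle, melanocytes and the RPE class were near or below the shares of all genes called there (15.0%, 12.4%, 14.7% and 26.3%). Timp3, a matrix-bound protease inhibitor of Bruch's membrane whose human counterpart is mutated in Sorsby fundus dystrophy, stood at 4915 and 6513 CPM in endothelial cells, 2628 and 4449.5 in fibroblasts and 2691 and 3000.5 in the RPE class, and was called higher in all 3 (log2 differences 2.55 ± 0.10, 1.79 ± 0.10 and 1.72 ± 0.10, adjusted p = 8.57e-12, 2.01e-09 and 9.14e-10). Serpine2, a serine protease inhibitor, stood at 1940.5 and 2419.5 CPM in fibroblasts, 1011 and 1009 in pericytes and 695 and 788 in smooth muscle, and was called higher in these 3 classes.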

How the data were processed

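Both libraries were deposited as raw UMI counts per gene and barcode with no cells selected, counted by the authors in Cell Ranger. Version 4 stands in the file headers, whereas the submitters' processing notes give 2.1.1 and the build mm10. Annotation, counting options and whether counting used strand are not given in the sources used here. Total depth was 91741168 and 149570817 UMIs. Positions come from GENCODE M21 (GRCm38), in which 32235 of 32285 gene IDs were found (99.8%). No gene of the matrices overlaps a member on its own strand, while Eln, Fbn1, Efemp2, Lox and Mfap4 overlap Gm30003, Gm9913, Mus81, AC161119.1 and Mapk7 on the other strand.

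Barcodes were kept and classed as stated in the results. Barcodes whose top trio had under 5 UMIs (597 and 754) or was tied (26 and 32) stayed in no class. Doublets were left in, and those called by Scrublet (217 and 700) were removed in an alternative. Free RNA, read from barcodes with at most 100 UMIs (4.90% and 4.11% of UMIs), was also left in. An alternative removed it at the share that rod genes gave for a class and library. Rom1 was left out of the rod genes after its level in the RPE class was seen.

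Counts were summed per library and class, 14 sums in all, and fitted in R 4.3.3 with edgeR 4.0.16 and limma 3.58.1, using trimmed-mean (TMM) scaling, filterByExpr, robust quasi-likelihood and the library as a block, which pairs the classes of 1 pool, at 6 residual degrees of freedom and a biological coefficient of variation of 0.133. Each SE was taken as the log2 difference over the square root of its F. For neighbours in the order of levels, which were picked from the same data, calls needed an adjusted p under 0.05. CPM values use raw UMI totals and fitted differences TMM totals. As 3′ UMI counts do not scale with transcript length, levels were not divided by it. Tests compared classes within a gene, and values of different genes were set side by side only as a description. Cells were never replicates. Shares of cells carry exact (Clopper-Pearson) 95% intervals that cover counting error only. A subset list needed at least 3 UMIs and no tie. The code was tested on simulated data. DESeq2 1.42.0 served as an alternative, and scanpy 1.11.5 ran Scrublet under Python 3.11.15.

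The members and lists were chosen with earlier results of these data known. Every member is reported. Of the other pathway genes, each was counted and named only as 1 of the 2 highest of its list or as a close relative of a member (Loxl2, Loxl3, Loxl4, Fbn2, Mfap2, Ltbp2). Splits of the endothelial, wall-cell and melanocyte classes, raw UMI totals, and the exclusion of cells with fibroblast marker UMIs were added after values were seen.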

Additional observations from a re-analysis of the deposited data

How the results depend on the processing

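Over 11 alternatives that keep both libraries, the 52 called differences of a member from the mean of the other classes kept direction and call in 539 of 572 fits, lost the call in 29 and turned in 4. Those 4 were Fbn1 in melanocytes with free RNA subtracted (0.0886), Mfap5 in the RPE class with free RNA subtracted (1.64), and Mfap5 in pericytes (-1.27) and smooth muscle (-1.35) without cells carrying fibroblast marker UMIs. All 10 members stayed higher in fibroblasts in each of these alternatives. With free RNA subtracted, members higher in melanocytes numbered 4 (1 otherwise) and members lower numbered 0 in melanocytes (2), 0 in the RPE class (5), 2 in endothelial cells (8) and 0 in pericytes (1). Of all 14984 genes tested then (15146 otherwise), 2654 were higher in melanocytes (2233). The numbers lower were 1248 in melanocytes (1705), 2939 in the RPE class (3553), 2104 in endothelial cells (2952) and 1598 in pericytes (1403). Without cells carrying fibroblast marker UMIs, members lower numbered 5 in melanocytes, 3 in the RPE class and 1 in smooth muscle (0). Of all 13694 genes tested then, 1462, 2650 and 1082 were lower in these classes. Without doublets, 5 members were lower in melanocytes, where 1977 of 15064 genes were lower, and 1 member (2 otherwise) was highest in Angptl7-Cilp2 fibroblasts. Raw UMI totals left 1 member higher in the RPE class (4), where 3477 of all genes were higher (3981). They moved the median over all genes to -0.25 in the RPE class, -0.58 in macrophages and 0.19 in melanocytes, with 2237 genes higher and 4581 lower in macrophages (3001 and 3203 otherwise) and 2748 and 1311 in melanocytes (2233 and 1705). The cause of these shifts was not tested.

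Of the differences between the highest and the next class, Eln in smooth muscle over fibroblasts became a call at 3-fold class UMIs (0.68), and without cells carrying fibroblast marker UMIs Eln (-0.56), Fbn1 in pericytes (-1.05) and Efemp1 in pericytes (-1.64) turned, where the filter also takes out any wall cell with collagen RNA of its own and may understate these levels. Calls were lost for Fbln5 over melanocytes with free RNA subtracted (1.13), for Efemp2 over the RPE class with no replicate block (0.44), with free RNA subtracted (0.46) and without cells carrying fibroblast marker UMIs (0.31), and for Mfap4 over smooth muscle without doublets (1.90), at 3-fold class UMIs (1.73), with free RNA subtracted (1.72) and without cells carrying fibroblast marker UMIs (1.93). Leaving out the block ended no other of the 52 class calls or of the calls between highest and next class. A single library leaves no residual degrees of freedom and gives values with no test: Eln 0.36 to 0.39, Fbn1 0.0786 to 0.0958, Fbln5 1.00 to 1.08. In 1 library alone, 10 of 104 class differences moved by over 1.5 times, among them Mfap4 in fibroblasts (5.36 and 4.01), Eln in endothelial cells (3.17 and 1.75) and Lox in the RPE class (-3.20 in library 1). Shares of cells moved with the thinning depth in 125 of 142 comparisons, so only their order within a depth was read. The 15 and 30 arterial cells, the 234 and 330 smooth muscle cells and the 2 pools set the precision of the results on vessels.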

Other observations

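A part of the melanocyte class differed from the rest in several members. Cells with UMIs of Prb1 and Gjb2 (98 and 80 cells) and of Syt4, Scrg1 and Nrcam (1193 and 1931 cells) had Fbln5 at 174 and 194 and at 176 and 208 CPM. The 116 and 240 melanocyte-class cells in neither set had Fbln5 at 64.5 and 62.7 CPM, Efemp1 at 109 and 151, Fbn1 at 40.6 and 80.5, Fbln1 at 84.3 and 195 and Mfap4 at 91.6 and 131. In the other 2 sets of melanocytes Efemp1 lay between 7.48 and 13.0 CPM. The same 116 and 240 cells carried Acta2 at 2607 and 1343 and Myh11 at 829.5 and 707 CPM, genes of smooth muscle. These sets were formed after the class levels were seen and were not tested.

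Barcodes with at most 100 UMIs, which sample RNA outside cells, held Lox at 325 and 394 CPM, Mfap5 at 213 and 219, Fbln1 at 158 and 224, Fbn1 at 52.0 and 96.2, Efemp1 at 33.6 and 43.9 and Eln at 29.8 and 41.3. The share of free RNA read from rod genes was highest in pericytes at 3.66% and 18.0% and in macrophages at 12.4% and 7.16%, and was 0.41% and 2.24% in the RPE class. Kept barcodes in no class, with a median of 3765 and 3696.5 UMIs, had Efemp1 at 67.6 and 115 CPM and Fbln1 at 83.0 and 163, and Eln at 9.39 and 4.93.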
